A study of Mus musculus with 57 samples.

Results

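Myeloid C-type lectin receptors are membrane proteins with which macrophages, dendritic cells, neutrophils and microglia sense carbohydrates, glycolipids and products of dying cells. Transcripts of 9 of them (Clec4a1, Clec4a2, Clec4a3, Clec4d, Clec4e, Clec4n, Clec5a, Clec7a and Clec12a) were taken by gene symbol from 2 count tables of mouse microglia. They are 9 of 50565 genes in one table and 9 of 53278 in the other, and all 9 passed the filter on low counts in both.

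RNA sequencing was done on CD11b-positive brain cells, which the labels call microglia, of wild-type (WT) mice and of their P2RY12-deficient littermates (KO). P2RY12 is a G protein-coupled receptor through which microglia sense nucleotides, and the study asked how its loss alters their transcriptional state. Adult animals of the sex experiment, with no treatment named in their labels, were 4 WT and 5 KO males and 4 WT and 5 KO females. The LPS experiment held WT and KO libraries labelled either ns, which the labels leave undefined, or LPS, the bacterial endotoxin lipopolysaccharide, injected into the peritoneum at 1 mg/kg. The deleted allele, the strain, the time after injection and the sex of the animals of the LPS experiment are not given in the sources used here. Nothing in the labels says that libraries of the LPS experiment came from separate animals, so p-values there measure only the spread between these samples, which may be technical.

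The family falls into receptors that activate the cell and receptors that restrain it. Clec7a (Dectin-1, which binds beta-glucans of fungi) carries its own signalling motif, whereas Clec4n (Dectin-2, a receptor for mannans), Clec4e (Mincle) and Clec4d (MCL, its partner), both receptors for mycobacterial glycolipids, signal through the Fc receptor gamma chain, and Clec5a (MDL-1) signals through the adaptor DAP12 encoded by Tyrobp. These chains recruit the kinase Syk and, downstream of it, the adaptor complex of Card9, Bcl10 and Malt1. Clec4a2 (DCIR) and Clec12a (MICL, a receptor for uric acid crystals) bear inhibitory motifs that recruit phosphatases such as Ptpn6, and Clec4a1 and Clec4a3 are close relatives of Clec4a2. Clec7a is also widely used as a marker of microglia in disease.

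All 9 genes lie on chromosome 6 (GRCm39 coordinates from the deposited table). Clec4a1 (chr6:122898807-122911578), Clec4a3 (chr6:122929474-122946837), Clec4a2 (chr6:123099627-123119891), Clec4n (chr6:123206802-123223983) and Clec4d (chr6:123239066-123252227) follow each other on the plus strand, and Clec4e (chr6:123258748-123266830) comes next on the minus strand. Clec12a (chr6:129327207-129342266, plus strand) and Clec7a (chr6:129438554-129449748, minus strand) lie together further along, and Clec5a (chr6:40551832-40562739, minus strand) lies apart. Promoter sequences, the 250 bases before the annotated start, were found for 8 of the 9 genes in RefSeq annotation of GRCm38.p6. Shown here, 5′ to 3′ on the strand of the gene, are the promoter of the receptor with the largest rise under LPS (Clec4a1), those of the neighbours whose levels went together from library to library (Clec4d and Clec4e), and that of a receptor that fell (Clec12a). Capitals mark motif matches on either strand.
Clec4a1: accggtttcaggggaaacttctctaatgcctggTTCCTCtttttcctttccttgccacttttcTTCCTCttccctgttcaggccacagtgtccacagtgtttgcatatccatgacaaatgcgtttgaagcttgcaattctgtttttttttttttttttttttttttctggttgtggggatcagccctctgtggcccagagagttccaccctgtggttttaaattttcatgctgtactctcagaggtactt
Clec4d: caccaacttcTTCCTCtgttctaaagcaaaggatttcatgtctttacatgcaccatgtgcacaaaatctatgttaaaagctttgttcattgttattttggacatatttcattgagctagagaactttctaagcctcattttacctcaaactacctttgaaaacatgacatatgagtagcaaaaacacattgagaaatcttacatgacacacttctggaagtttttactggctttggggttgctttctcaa
Clec4e: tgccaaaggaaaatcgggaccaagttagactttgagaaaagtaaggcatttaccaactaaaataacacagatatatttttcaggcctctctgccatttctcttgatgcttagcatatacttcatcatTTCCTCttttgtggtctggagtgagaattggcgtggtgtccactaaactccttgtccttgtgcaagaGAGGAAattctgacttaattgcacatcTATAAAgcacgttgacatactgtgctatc
Clec12a: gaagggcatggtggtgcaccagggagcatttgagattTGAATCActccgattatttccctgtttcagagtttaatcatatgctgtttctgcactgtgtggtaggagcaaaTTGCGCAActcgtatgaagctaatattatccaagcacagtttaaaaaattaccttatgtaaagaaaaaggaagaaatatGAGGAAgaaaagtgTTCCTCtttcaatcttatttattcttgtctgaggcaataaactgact
They lie on GRCm38.p6 at chr6:122921598-122921847 (Clec4a1, plus strand), chr6:123261857-123262106 (Clec4d, plus), chr6:123289872-123290121 (Clec4e, minus) and chr6:129349994-129350243 (Clec12a, plus). The purine-rich ETS core GAGGAA, which is part of the longer PU.1 motif GAGGAAGT, was found on either strand for 7 of the 8 genes, and Clec4a2 had none. Clec4a3 and Clec7a each have a further annotated promoter, and that of Clec4a3 starting at chr6:122952265 lacked the core. Of 32851 mouse promoters of the same length 23.3% held it, a share counted per promoter and not per gene. The C/EBP palindrome TTGCGCAA was found in Clec12a, against 0.164% of all promoters, and the AP-1 motif TGANTCA also in Clec12a, against 6.75%. TATAAA was found in the promoters of Clec4e, Clec4a2 and Clec5a, against 12.4% of all. None of the promoters of the 8 genes held GAGGAAGT (2.44% of all promoters). These matches describe letters in a window and say nothing of binding.

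The totals were 58.5 M to 319 M counts per animal in the sex experiment and 15.9 M to 168 M per sample in the LPS experiment, with a median of 24.7 M there. P2ry12 transcripts were lower in KO than in WT groups, at 585 to 1234 CPM (counts scaled to a common library size) in KO ns libraries against 3515 to 5409 CPM in WT ns libraries, and at 84.3 to 153 CPM in KO LPS against 401 to 1059 CPM in WT LPS libraries. They also fell with LPS in WT (-2.96 ± 0.23 on the log2 scale), so that WT LPS libraries, with a mean of 578 CPM, overlapped KO ns libraries, with a mean of 729 CPM. All 10 markers of microglia had counts in every group of the LPS experiment, and so did the 9 of 10 found by symbol in the sex experiment, where Fcrls was not analysed. The 4 WT libraries of number 2 went against their treatment label: replicates 1 and 5 labelled WT ns held 482 and 925 CPM of P2ry12 and 1784 and 2486 CPM of Saa3, an acute-phase gene, while replicates 1 and 6 labelled WT LPS held 4461 and 12085 CPM of P2ry12 and 1.59 and 3.19 CPM of Saa3. In the other libraries Saa3 was at most 64.3 CPM in ns and at least 1027 CPM in LPS groups. These 4 libraries are therefore shown apart, and results with them as labelled are given beside those without them. The remaining 28 samples were 6 WT ns, 6 WT LPS, 8 KO ns and 8 KO LPS. In 3 of them, WT LPS 7, KO ns 6 and KO LPS 5, mitochondrially encoded genes took 6.75%, 8.56% and 5.63% of counts, against at most 3.03% in the other samples except WT LPS 6, which had 7.47%. They are kept, and the LPS responses and genotype differences the text turns on are also given without them.

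Per kilobase of exon, over all transcripts of the GENCODE M21 annotation, Clec4a3 was the most abundant of these receptors in WT ns libraries. Its median was 57.1 CPM per kilobase (44.6 to 69.5 over 6 libraries). Clec5a followed at 36.7 (25.1 to 40.0), then Clec4a2 at 23.9, Clec7a at 19.5 and Clec4a1 at 18.9, whose ranges overlapped one another. Clec4d at 8.07, Clec12a at 6.19, Clec4n at 4.83 and Clec4e at 1.99 CPM per kilobase formed the low end, again with overlapping ranges. This order depends on the exon lengths, from 1327 bases for Clec4a3 to 5528 for Clec12a, and the transcripts expressed were not examined. By CPM alone, the WT ns median of Clec5a (141 CPM) was above that of Clec4a3 (75.8 CPM). That of Clec12a (34.2 CPM) was above that of Clec4a1 (29.4 CPM). In WT LPS libraries the order was led by Clec4a1, with a median of 265 CPM per kilobase (107 to 639), and Clec4a3, with 192 (148 to 899). The 2 ranges overlapped there, as they did in KO LPS libraries, where Clec4a3 had 177 and Clec4a1 146 CPM per kilobase.

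**Figure D1:**
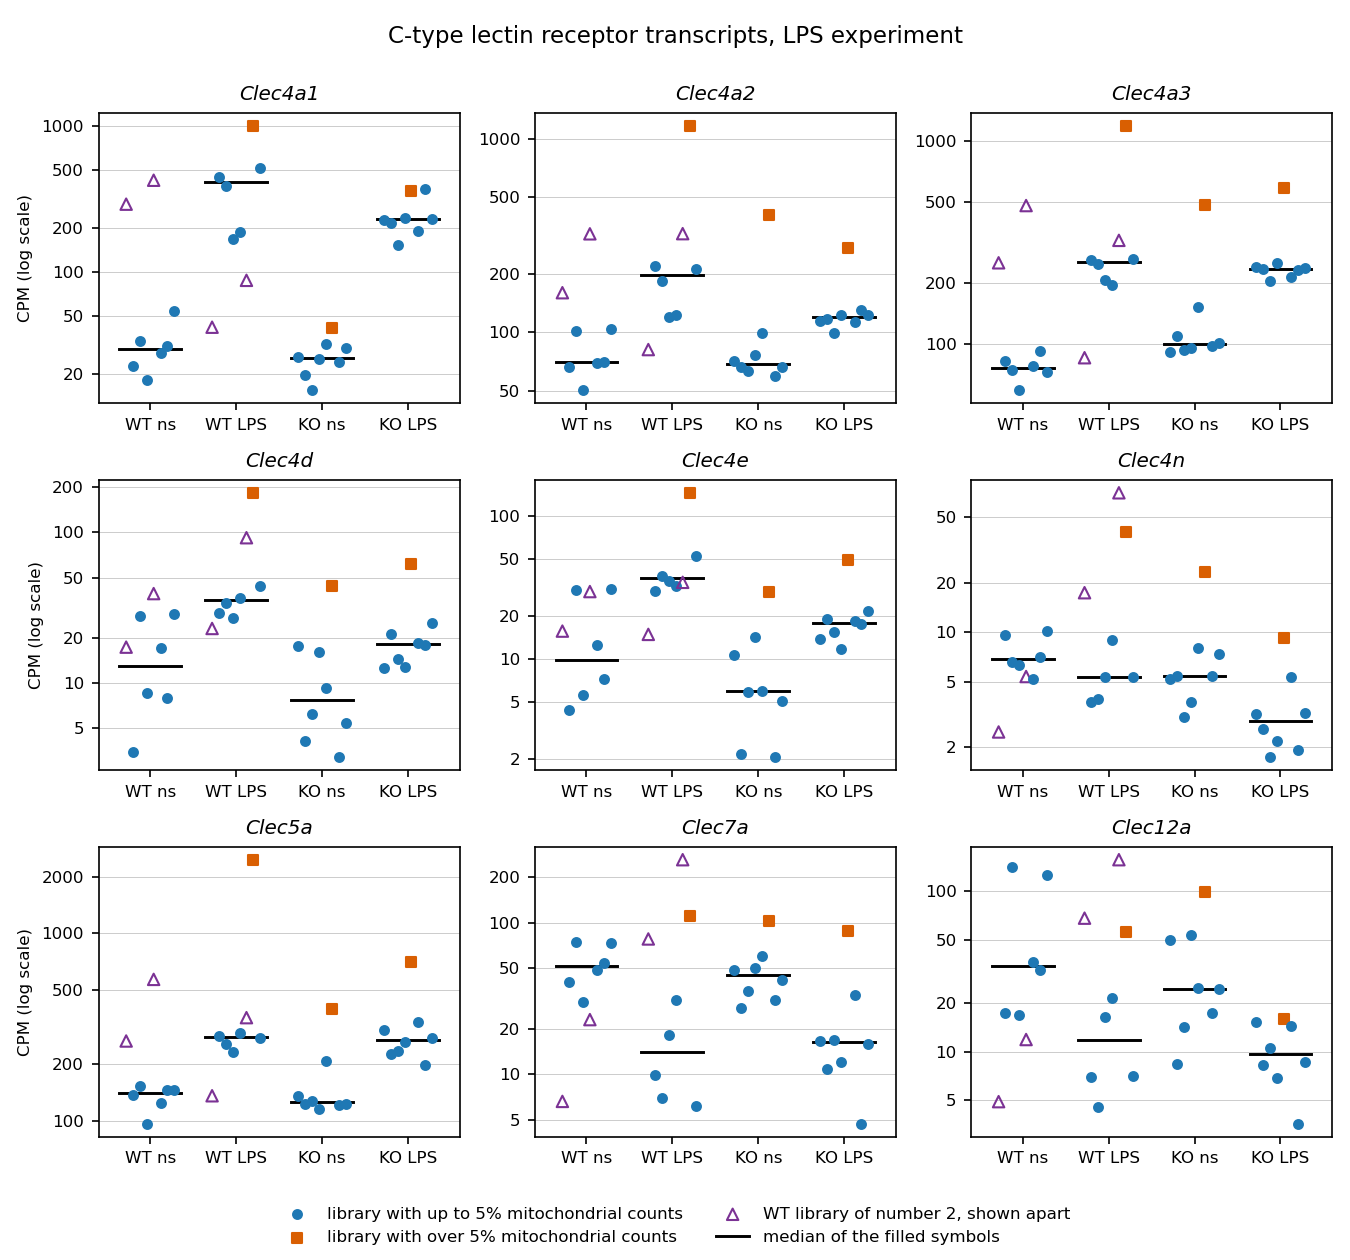
Level of each receptor in the LPS experiment, in CPM on a log scale, by genotype and treatment, with 1 symbol per sample. Bars are medians of the filled symbols; Clec4a1 separates LPS from ns samples in both genotypes, squares mark the 3 samples with over 5% mitochondrial counts, and open triangles mark the WT libraries of number 2.

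The LPS experiment addressed how the receptors respond to endotoxin with and without P2RY12. Under LPS, transcripts of the Clec4a group and of Clec4d, Clec4e and Clec5a rose in WT samples and Clec12a fell. In KO samples Clec4a1 and Clec4a3 rose and Clec12a fell. Of the 9 receptors, 7 passed edgeR's quasi-likelihood test in WT (adjusted p under 0.05, Benjamini-Hochberg over 16322 genes), 6 higher and 1 lower, where 30.7% of all genes tested passed, 14.8% higher and 15.9% lower. In KO, 3 passed, 2 higher and 1 lower, where 28.8% of all genes passed, 13.3% higher and 15.5% lower. The median log2 fold change of the 9 receptors was 1.78 in WT and 0.72 in KO, against -0.01 and -0.02 over all genes. With the 3 samples of high mitochondrial share left out, the middle value of the 9 was that of Clec4d, at 1.16 in WT and 0.97 in KO. Without the 3 samples of high mitochondrial share, 8 receptors passed in each genotype, 6 higher and 2 lower in WT and 5 higher and 3 lower in KO, where 45.3% and 47.7% of all genes passed. Without WT LPS 7 alone, 5 passed in KO, and the share of all genes passing in that fit is not given here. The libraries fell into 2 sets by their names, with all 4 groups in each, and set 2 holds the 3 samples of high mitochondrial share: within set 1 alone 6 receptors passed in each genotype (42.6% of genes in WT, 45.3% in KO), and within set 2 alone 1 passed in each, Clec4a1 (3.31% and 4.36%). In bulk RNA, fewer cells of a type and less RNA per cell cannot be told apart.

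Clec4a1 rose most. It stood at 18.2 to 53.7 CPM (median 29.4) in WT ns and at 167 to 995 CPM (median 414) in WT LPS samples. In KO it stood at 15.6 to 41.6 CPM (median 25.6) in ns and at 153 to 370 CPM (median 228) in LPS samples. The groups did not overlap in either genotype, a separation found for 24.6% of all genes in WT and 7.56% in KO. The log2 fold change was 3.83 ± 0.33 (SE) in WT, 14.2-fold, with an adjusted p of 2.53e-09 in edgeR's test, and 3.22 ± 0.28 in KO, 9.30-fold, with an adjusted p of 1.3e-09. It remained called in both genotypes whichever of the 28 samples was left out. In the absence of the samples of high mitochondrial share it was 3.54 ± 0.29 in WT and 3.25 ± 0.26 in KO. Within library set 1 it was 3.78 in WT and 3.30 in KO, and within set 2 it was 3.95 and 3.20.

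Clec4a3, the most abundant relative, ran from 59.2 to 92.3 CPM (median 75.8) in WT ns and from 196 to 1193 CPM (median 255) in WT LPS samples. Its log2 fold change in WT was 2.24 ± 0.41 (adjusted p = 0.000135), and 1.66 ± 0.14 without WT LPS 7, which alone exceeded 262 CPM, and the other 2 samples of high mitochondrial share. In KO it ran from 91.1 to 484 CPM (median 99.4) in ns and from 204 to 585 CPM (median 235) in LPS samples, where only KO ns 6 reached into the LPS range. The rise there was 0.93 ± 0.34 (adjusted p = 0.0403). This call was lost without any 1 of 13 samples (KO ns 1 to 5, 7 and 8, KO LPS 1 to 5, or WT ns 4), with adjusted p between 0.0517 and 0.117. Without the 3 samples of high mitochondrial share it was 1.14 ± 0.12 (adjusted p = 3.81e-08), with 91.1 to 152 CPM in KO ns and 204 to 249 CPM in KO LPS samples.

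Clec4a2, the inhibitory receptor DCIR, ran from 50.6 to 104 CPM (median 70.1) in WT ns and from 120 to 1162 CPM (median 199) in WT LPS samples, again without overlap. It rose by 1.94 ± 0.47 on the log2 scale in WT (adjusted p = 0.00253), and by 1.20 ± 0.19 without the samples of high mitochondrial share. In KO it ran from 59.8 to 405 CPM (median 68.9) in ns and from 99.3 to 271 CPM (median 120) in LPS samples, and the log2 difference of 0.36 ± 0.39 did not pass (adjusted p = 0.548). Both extremes came from samples of high mitochondrial share, KO ns 6 and KO LPS 5. Without them the KO groups ran from 59.8 to 98.9 CPM and from 99.3 to 131 CPM and did not overlap, which held for 22.7% of all genes, and they differed by 0.72 ± 0.17 (adjusted p = 0.0009). Of the 50-base stretches of its transcripts, 6.83% are shared with other genes, mostly Clec4a4 and Clec4b1, against none for Clec4a1 and Clec4a3.

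The receptors of mycobacterial glycolipids rose in WT. Clec4d ran from 3.47 to 28.6 CPM (median 12.9) in WT ns and from 26.96 to 183 CPM (median 35.3) in WT LPS samples. Clec4e ran from 4.44 to 30.8 CPM (median 9.88) in WT ns and from 29.7 to 144 CPM (median 36.5) in WT LPS samples. The ranges of both genes met only at their edges, where WT ns 3 and WT ns 8 were high. In edgeR's test the log2 fold changes were 1.76 ± 0.58 (adjusted p = 0.0228) for Clec4d and 1.78 ± 0.57 (adjusted p = 0.0182) for Clec4e. Without WT LPS 7, the highest sample, they were 1.20 (adjusted p = 0.131) and 1.36 (adjusted p = 0.0839), and the call of Clec4d was also lost without WT ns 4 (adjusted p = 0.05001) or WT ns 7 (adjusted p = 0.0587). Without all 3 samples of high mitochondrial share they were 1.16 ± 0.44 (adjusted p = 0.0359) and 1.33 ± 0.47 (adjusted p = 0.0239).

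In KO, Clec4d stood at a median of 7.76 CPM in ns (3.24 to 44.3) and of 18.1 CPM in LPS samples (12.6 to 61.7), a log2 difference of 0.72 ± 0.49 (adjusted p = 0.306). Clec4e stood at 5.96 CPM (2.09 to 29.4) and 17.9 CPM (11.7 to 48.9), a difference of 1.09 ± 0.48 (adjusted p = 0.095). KO ns 6 was the highest ns sample for both, and without it the difference of Clec4e was 1.56 (adjusted p = 0.0213). Leaving out all 3 samples of high mitochondrial share gave 0.97 ± 0.40 for Clec4d (adjusted p = 0.0513) and 1.35 ± 0.43 for Clec4e, which then passed (adjusted p = 0.0121). Sap130, a nuclear protein that Mincle senses when released from dying cells, did not pass in either genotype, with log2 differences of -0.16 ± 0.32 in WT and 0.15 ± 0.28 in KO.

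Clec5a, the DAP12-coupled receptor, ran from 96.3 to 153 CPM (median 141) in WT ns and from 231 to 2479 CPM (median 279.8) in WT LPS samples. All WT LPS samples lay above all WT ns samples, and the others than WT LPS 7 reached at most 295 CPM. It rose by 2.01 ± 0.45 on the log2 scale (adjusted p = 0.00137), and by 1.05 ± 0.16 (adjusted p = 1.05e-05) without the samples of high mitochondrial share. In KO it ran from 116 to 394 CPM (median 125) in ns and from 197 to 703 CPM (median 269.6) in LPS samples, a difference of 0.95 ± 0.38 that did not pass (adjusted p = 0.0605). It passed there without WT LPS 7 (0.97, adjusted p = 0.0042), WT LPS 8 (0.95, 0.0492), KO ns 6 (1.19, 0.0261) or KO LPS 7 (1.06, 0.0406), and without the 3 samples of high mitochondrial share it was 0.97 ± 0.14 (adjusted p = 4.94e-06).

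Clec4n, the mannan receptor Dectin-2, ran from 5.18 to 10.1 CPM (median 6.86) in WT ns and from 3.79 to 40.7 CPM (median 5.34) in WT LPS samples, and the log2 difference of 0.22 ± 0.46 did not pass (adjusted p = 0.752). Without the 3 samples of high mitochondrial share, among them WT LPS 7 at 40.7 CPM, it was -0.45 ± 0.25 (adjusted p = 0.160), and within set 1 it was -0.75 and passed (adjusted p = 0.0345). In KO it ran from 3.05 to 23.2 CPM (median 5.42) in ns and from 1.75 to 9.17 CPM (median 2.88) in LPS samples. The KO difference of -0.998 ± 0.40 did not pass (adjusted p = 0.0601) and did so without WT LPS 7 (adjusted p = 0.0247), KO ns 7 (0.0459) or KO LPS 5 (0.0317). With the 3 samples of high mitochondrial share left out it was -0.88 ± 0.23 (adjusted p = 0.0026).

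Clec7a, the beta-glucan receptor Dectin-1, ran from 30.0 to 75.0 CPM (median 51.5) in WT ns samples. In WT LPS samples 5 of 6 lay between 6.13 and 31.1 CPM and WT LPS 7 stood at 110 CPM. In KO it ran from 27.4 to 103 CPM (median 45.3) in ns, and 7 of 8 LPS samples lay between 4.70 and 33.6 CPM with KO LPS 5 at 88.6 CPM. With these samples the log2 differences were -1.12 ± 0.56 in WT (adjusted p = 0.134) and -1.14 ± 0.48 in KO (adjusted p = 0.079). Without WT LPS 7 the WT difference was -1.87 (adjusted p = 0.0113), without KO LPS 5 the KO difference was -1.57 (adjusted p = 0.0117), and without all 3 samples of high mitochondrial share the 2 were -1.87 ± 0.41 (adjusted p = 0.000707) and -1.41 ± 0.35 (adjusted p = 0.00193). Within set 1, which holds none of these 3 samples, they were -2.02 and -1.49, and within set 2 they were -0.21 and -0.65.

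Clec12a, the inhibitory receptor MICL, fell in both genotypes. It ran from 16.8 to 142 CPM (median 34.2) in WT ns and from 4.51 to 56.0 CPM (median 11.8) in WT LPS samples. In KO it ran from 8.41 to 99.9 CPM (median 24.6) in ns and from 3.55 to 15.9 CPM (median 9.61) in LPS samples. The groups overlapped in both genotypes, and WT ns 3 (142 CPM), WT ns 8 (128 CPM) and KO ns 6 (99.9 CPM) were far above the medians of their groups. It fell by 1.84 ± 0.64 on the log2 scale in WT (adjusted p = 0.0301) and by 1.78 ± 0.55 in KO (adjusted p = 0.0156). The WT call was lost without WT ns 3 (-1.21, adjusted p = 0.136), WT ns 8 (-1.55, 0.0937), WT LPS 2 (-1.67, 0.0712), WT LPS 3 (-1.63, 0.0702) or WT LPS 8 (-1.67, 0.0584), and the KO call without KO ns 6 (-1.41, 0.0572). With the 3 samples of high mitochondrial share left out the differences were -2.44 ± 0.62 (adjusted p = 0.00245) and -1.48 ± 0.52 (adjusted p = 0.0219).

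**Figure D2:**
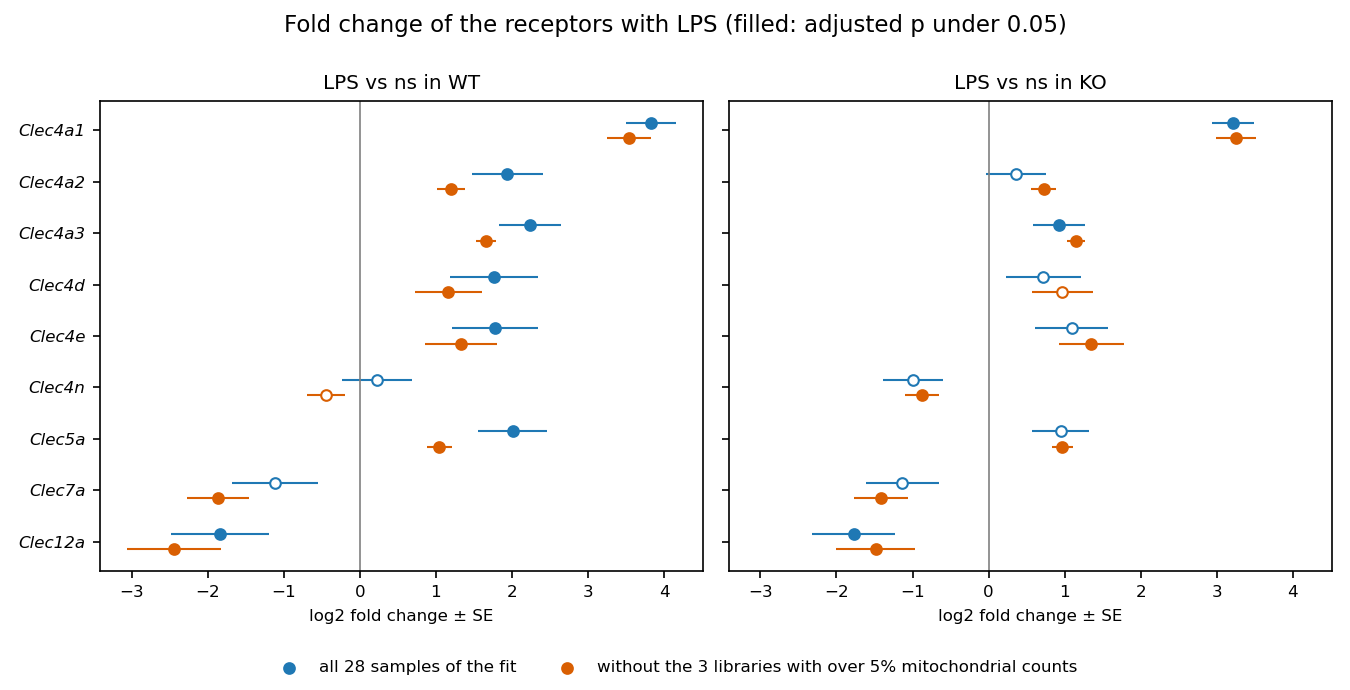
Log2 fold change of each receptor with LPS in WT (left) and KO (right), as points with SE bars, with all 28 samples and without the 3 samples with over 5% mitochondrial counts. Filled points passed the test; Clec4a1 lies near 3.83 in WT and 3.22 in KO, and Clec7a and Clec12a lie below 0 in both.

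High levels of Clec4d, Clec4e and Clec12a coincided with high neutrophil transcripts in single libraries. All 10 neutrophil markers (S100a8, S100a9, Ly6g, Mmp8, Mmp9, Ltf, Camp, Ngp, Cxcr2 and Retnlg) had counts in every group, and their summed level ran from 370 to 17972 CPM in WT ns, 1884 to 13486 CPM in WT LPS, 323 to 10093 CPM in KO ns and 1092 to 4445 CPM in KO LPS samples. WT ns 3 and WT ns 8, high for these 3 receptors within their group, had the 2 highest sums of the experiment, 17972 and 16744 CPM. WT LPS 7 and KO ns 6 had the highest sums of their groups. Among the LPS samples of low mitochondrial share the 3 receptors differed in how they went with the sums. WT LPS 4 and KO LPS 1 had the highest sums of their groups (3796 and 3815 CPM). They also had the lowest Clec4d (26.96 and 12.6 CPM). WT LPS 8, with a sum of 1969 CPM, had the highest Clec4d (44.1 CPM) and Clec4e (52.5 CPM) of WT. Clec4e was lowest of KO (11.7 CPM) in KO LPS 4, which had the lowest sum (1092 CPM). Clec12a was highest of KO (15.3 CPM) in KO LPS 1. In WT, Clec12a was 16.5 CPM in WT LPS 4, 21.7 CPM in WT LPS 5 (sum 3278 CPM) and 4.51 CPM in WT LPS 3. The sum of WT LPS 3 was the lowest of WT (1884 CPM). The summed level of 10 monocyte markers also peaked in WT LPS 7 (2759 CPM) and WT ns 3 (2138 CPM). The part of neutrophils and monocytes in the levels of these receptors was not tested.

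**Figure D3:**
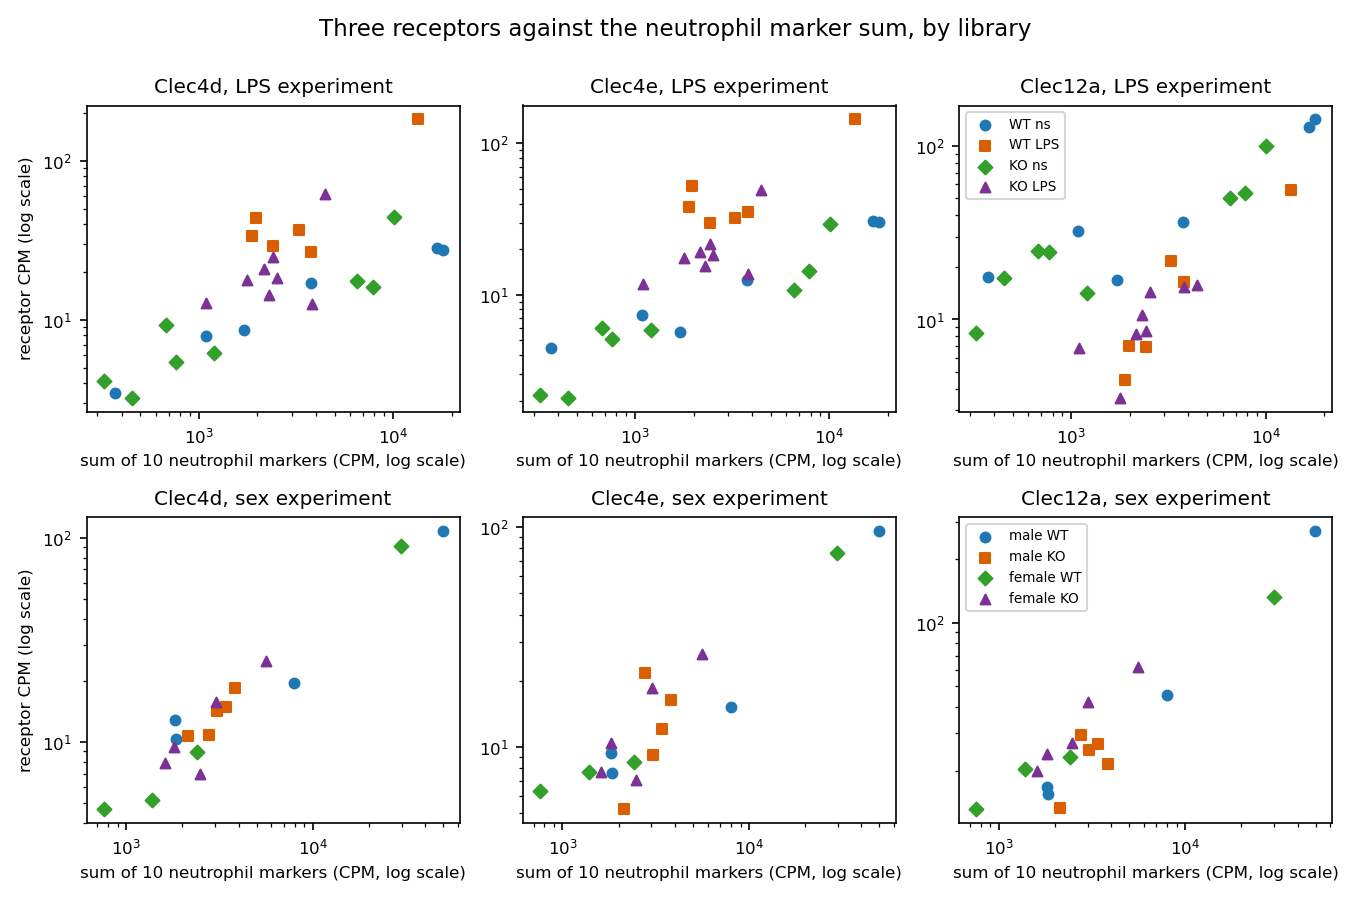
CPM of Clec4d, Clec4e and Clec12a against the summed CPM of 10 neutrophil markers, both on log scales, with 1 symbol per sample, for the LPS experiment (top, without the WT libraries of number 2) and the sex experiment (bottom). In the sex experiment the WT animals with neutrophil sums of 29735 and 49598 CPM are also the highest for the 3 receptors.

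The WT libraries of number 2 also went against their labels for Clec4a1, Clec12a and Clec7a. Clec4a1 was 290 and 423 CPM in the libraries labelled ns and 41.8 and 87.4 CPM in those labelled LPS. Clec12a was 4.87 and 11.9 CPM in those labelled ns and 68.1 and 158 CPM in those labelled LPS, and Clec7a was 6.59 and 22.9 CPM against 78.3 and 262 CPM. Clec4a3 overlapped, at 251 and 482 CPM against 85.3 and 324 CPM. With all libraries as labelled, no gene (0%) passed for LPS against ns in WT, although 3668 genes, 22.8% of those tested, had an unadjusted p under 0.05 in edgeR's test. The WT log2 fold change of Clec4a1 was then 1.63 ± 0.57 (adjusted p = 0.131) and that of Clec7a was 0.33 ± 0.59. In KO, Clec4a1 alone remained called in that fit (3.22 ± 0.61, adjusted p = 0.000665), where 22.2% of all genes passed.

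The comparison of KO with WT asked whether loss of P2RY12 shifts the receptors in ns samples or under LPS. In ns samples none of the 9 receptors passed edgeR's test, where 0.0919% of all genes passed, none passed DESeq2, where 0.306% did, and 1 of 9 had an unadjusted p under 0.05, against 9.37% of all genes. That gene was Clec4a3, with the KO ns and WT ns levels given above and a log2 difference of 0.88 ± 0.37 (adjusted p = 0.491). It was 0.48 ± 0.12 (adjusted p = 0.129) without the 3 samples of high mitochondrial share, and 0.43 and 1.41 within sets 1 and 2. Clec4e differed by -0.69 ± 0.51 (adjusted p = 0.629) and Clec12a by -0.79 ± 0.57 (adjusted p = 0.625). The other 6 receptors had differences between -0.24 and 0.41.

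Under LPS none of the 9 receptors passed either, by edgeR's test, where 0.0674% of all genes passed, or by DESeq2, where 0.343% did. All 9 log2 differences between KO LPS and WT LPS samples were below 0, with a median of -0.83, against -0.04 over all genes, of which 43.4% were above 0. Of the 9, 5 had an unadjusted p under 0.05, against 6.39% of all genes. Clec4n differed by -1.44 ± 0.42 (adjusted p = 0.376), Clec4e by -1.37 ± 0.51 (0.595), Clec4d by -1.28 ± 0.53 (0.657), Clec4a2 by -1.16 ± 0.42 (0.563) and Clec4a1 by -0.83 ± 0.27 (0.487). Clec5a differed by -0.82 ± 0.41, Clec12a by -0.72 ± 0.58, Clec4a3 by -0.43 ± 0.36 and Clec7a by -0.18 ± 0.51. Leaving out WT LPS 7 moved all 5 by over 1.5 times, to -0.65 for Clec4n, -0.89 for Clec4e, -0.64 for Clec4d, -0.40 for Clec4a2 and -0.51 for Clec4a1. Without it, Clec4a3, Clec5a and Clec7a lay above 0, at 0.17, 0.21 and 0.69, and within set 1, which does not hold it, Clec5a, Clec7a and Clec12a did so at 0.01, 0.26 and 0.14.

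Without the 3 samples of high mitochondrial share, Clec4d ran from 12.6 to 24.98 CPM in KO LPS and from 26.96 to 44.1 CPM in WT LPS samples, and Clec4e from 11.7 to 21.7 CPM and from 29.7 to 52.5 CPM. Neither pair of groups overlapped, which held for 1.2% of all genes, and the log2 differences of -0.97 ± 0.42 (adjusted p = 0.575) and -1.15 ± 0.45 (adjusted p = 0.497) did not pass. The neutrophil sums of the same samples ran from 1092 to 3815 CPM in KO LPS and from 1884 to 3796 CPM in WT LPS. Clec4n differed there by -0.91 ± 0.25 (adjusted p = 0.199) and Clec4a2 by -0.56 ± 0.18 (adjusted p = 0.328). With all libraries as labelled Clec4n passed, at -2.23 ± 0.48 (adjusted p = 0.0475), where 0.124% of all genes passed. In that comparison the WT libraries of number 2 labelled LPS held 17.4 and 70.4 CPM of Clec4n.

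The test of a different LPS response between genotypes called none of the 9 receptors and none (0%) of the 16322 genes, of which 816 (5%) had an unadjusted p under 0.05 in edgeR's test. Among the receptors, 2 had an unadjusted p under 0.05 and 1 of 9 differences was above 0, against 54.8% of all genes. DESeq2 called 3 genes (0.0184%) and none of the 9. The adjusted p-values of the receptors were 0.740 or higher. None of the 9 passed without the 3 samples of high mitochondrial share either, where 0.00607% of genes did, and the differences ran from -0.52 ± 0.18 for Clec4a3 to 0.96 ± 0.78 for Clec12a. The passes of 7 receptors in WT and 3 in KO are therefore not shown to differ.

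The sex experiment compared KO with WT animals within each sex. By edgeR's test none of the 9 receptors passed in males, where 0.00946% of 31709 genes passed, or in females, where 0.164% passed; 4 and 1 of the 9 had an unadjusted p under 0.05, against 6.85% and 5.22% of all genes. DESeq2 called none of the 9 in males (0.0757% of genes), in females (0.672%), averaged over the sexes (1.13%), in the interaction (0%) or between female and male WT (0.483%). None passed for KO against WT averaged over the sexes (0.432% of genes passed, and 3 of the 9 had an unadjusted p under 0.05, against 9.02% of genes), for the sex-by-genotype interaction (0%, with 879 genes, 2.77%, and none of the 9 at an unadjusted p under 0.05) or for female against male WT (0.0725%, with 7.5% of genes and none of the 9 at an unadjusted p under 0.05). The median log2 difference of the 9 was -0.54 in males and -0.11 in females, against -0.01 over all genes in each.

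Clec12a was 15.4, 16.7, 45.4 and 271 CPM in male WT, 25.1, 21.6, 13.3, 26.6 and 29.4 CPM in male KO, 13.1, 132, 23.2 and 20.4 CPM in female WT, and 26.96, 24.003, 19.8, 61.5 and 42.2 CPM in female KO animals. In each WT group 1 animal stood far above the others, male WT 5 and female WT 2. The same 2 animals stood out for Clec4d, at 108 CPM against 10.3 to 19.4 CPM in the other male WT and at 91.3 CPM against 4.67 to 8.98 CPM in the other female WT animals. They did so for Clec4e as well, at 95.7 against 7.59 to 15.2 CPM and 76.0 against 6.34 to 8.55 CPM. For Clec7a they had 172 against 41.2 to 61.2 CPM, and 106 against 34.9 to 51.0 CPM. Their summed neutrophil markers were 49598 and 29735 CPM, against at most 7963 CPM in any other animal, and their monocyte marker sums were 4333 and 2537 CPM. The part of these cells in the receptor levels was not tested.

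**Figure D4:**
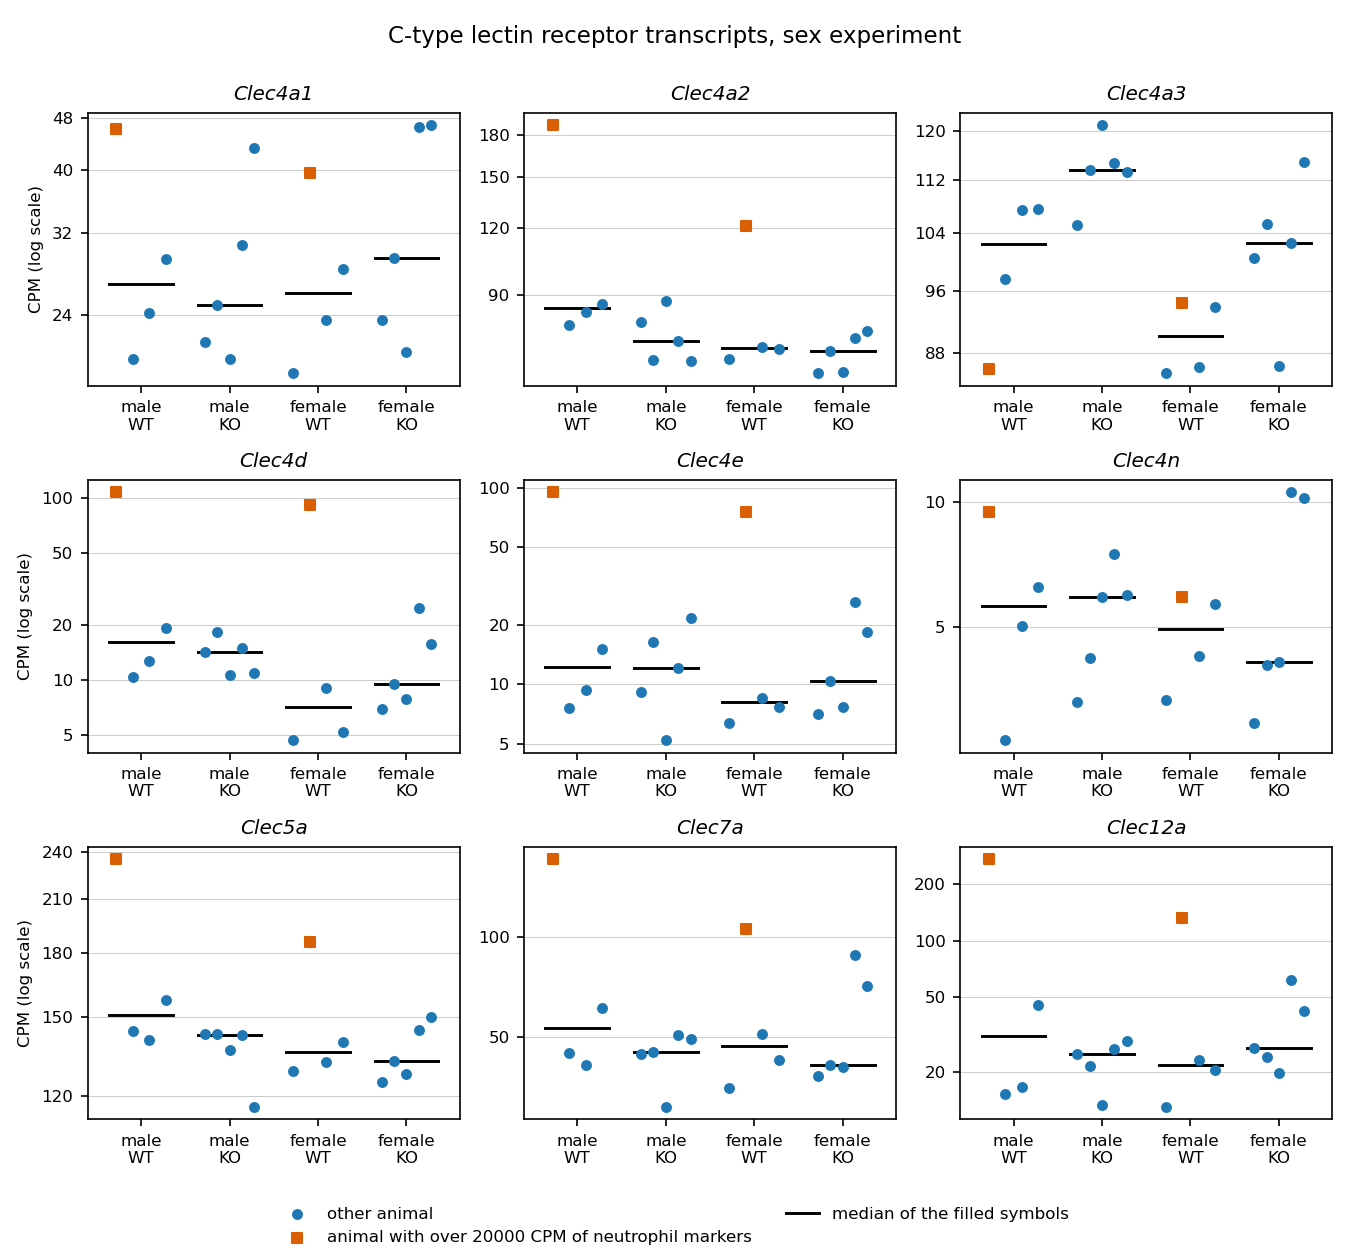
Level of each receptor in the sex experiment, in CPM on a log scale, by sex and genotype, with 1 symbol per animal and medians as bars. Squares are male WT 5 and female WT 2, which lie above the other WT animals of their sex for the 8 receptors other than Clec4a3.

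With all 18 animals, Clec12a differed between male KO and WT by -1.91 ± 0.84 on the log2 scale, Clec4d by -1.45 ± 0.89, Clec4e by -1.31 ± 0.89 and Clec7a by -0.86 ± 0.44, with adjusted p-values from 0.719 to 0.825 in edgeR's test. Without the 2 animals of high neutrophil sum, Clec12a differed by -0.16 ± 0.45, Clec4d by -0.04 ± 0.41, Clec4e by 0.26 ± 0.51 and Clec7a by -0.16, and none passed, where 0.0125% of all genes passed. In females the differences with all animals were -1.08 ± 0.89 for Clec4d, -0.82 ± 0.89 for Clec4e and -0.43 ± 0.83 for Clec12a. Without the 2 animals they turned to 1.05 ± 0.43 (adjusted p = 0.567), 0.90 ± 0.52 (0.772) and 0.89 ± 0.46 (0.716), and none passed, where 0.602% of all genes passed.

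Clec4a3 behaved otherwise. It was 97.5, 107, 108 and 86.0 CPM in male WT and 105, 114, 121, 115 and 113 CPM in male KO animals. In females it was 85.5, 94.3, 86.3 and 93.8 CPM in WT and 100.5, 105, 86.4, 103 and 115 CPM in KO animals. The KO levels lay mostly above the WT levels, with an overlap in each sex, and the differences of 0.19 ± 0.08 in males and 0.18 ± 0.08 in females did not pass (adjusted p = 0.719 and 0.911). The difference in ns samples of the LPS experiment, given above, had the same sign and did not pass there either. Clec4a1 ran from 19.6 to 46.8 CPM, Clec4n from 2.68 to 10.5 CPM and Clec5a from 116 to 235 CPM over all 18 animals, and Clec4a2 stayed between 64.0 and 121 CPM in all but male WT 5, at 188 CPM.

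Partners of the receptors were read from a list of 19 adaptors, kinases and phosphatases, all of which were tested. Under LPS 6 passed higher and 2 lower in WT, where 14.8% and 15.9% of all genes did, and 4 higher and 1 lower in KO, where 13.3% and 15.5% did. Leaving out the samples of high mitochondrial share made these counts 9 and 2 in WT and 10 and 2 in KO. There 45.3% of all genes passed in either direction in WT and 47.7% in KO. The shares passing higher and lower are not given for that fit. With all 28 samples, none of the 19 passed edgeR's test between genotypes at ns or under LPS. In each comparison 1 of 19 had an unadjusted p under 0.05, against 9.37% and 6.39% of all genes. The Src-family kinase Fgr (2.33 ± 0.53 in WT, 2.91 ± 0.47 in KO), the adaptor Lcp2 (0.75 ± 0.14 and 0.81 ± 0.12) and the phosphatase Ptpn6, which inhibitory lectins recruit (0.58 ± 0.16 and 0.63 ± 0.14), rose in both genotypes. The adaptor Blnk fell in both (-1.75 ± 0.20 and -1.68 ± 0.17). In WT, Fcer1g, the gamma chain of Clec4d, Clec4e and Clec4n, rose by 1.32 ± 0.44 and Lyn by 0.50 ± 0.19, and Src fell (-1.27 ± 0.48). Without the 3 samples of high mitochondrial share Fcer1g rose by 0.69 ± 0.13 in WT and by 0.57 ± 0.11 in KO. Tyrobp, the adaptor of Clec5a, differed by 0.52 ± 0.39 in WT and -0.32 ± 0.34 in KO, Syk by -0.32 ± 0.38 and -0.09 ± 0.33, and Card9 by 0.07 ± 0.32 and 0.43 ± 0.28; none of these passed.

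Other C-type lectins went largely the other way. Of 27 listed, 21 were tested; 12 passed lower and 4 higher in KO under LPS, and 11 lower and 4 higher in WT, against the same shares of all genes as above, with a median log2 fold change of -1.56 and -1.80. Of the 22 tested without the samples of high mitochondrial share, 12 passed lower and 4 higher in KO and 15 lower and 4 higher in WT. There 47.7% of all genes passed in either direction in KO and 45.3% in WT. The KO falls were largest for Cd209a (-7.48 ± 0.65), Mgl2 (-4.68 ± 0.38) and Cd209d (-4.50 ± 0.65), lectins of dendritic cells and macrophages, and included the mannose receptor Mrc1 (-1.56 ± 0.20) and Clec9a (-3.68 ± 0.49), Clec1a (-2.59 ± 0.38), Clec1b (-2.13 ± 0.54), Clec2i (-2.08 ± 0.33), Clec10a (-2.03 ± 0.31), Klrb1b (-1.83 ± 0.31), Mrc2 (-1.68 ± 0.38) and Selplg (-1.19 ± 0.21). Higher in KO were the activation antigen Cd69 (3.47 ± 0.70), Clec2d (1.99 ± 0.29), Clec4a4 (1.42 ± 0.37), a further relative of Clec4a2, and Cd302 (0.95 ± 0.33). None of this list passed between genotypes in edgeR's test, with 2 of 21 at an unadjusted p under 0.05 in ns samples and 7 under LPS, against 9.37% and 6.39% of all genes. The summed level of 8 dendritic cell markers, which share Cd209a, Clec9a and Clec10a with the list, ran from 38.9 to 97.3 CPM in KO ns and from 10.5 to 28.9 CPM in KO LPS samples, and the part of these cells was not tested.

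The receptors were next compared with one another by the deviations of their log2 levels from the mean of group and library set, over the 28 samples of the LPS experiment. Samples share depth and composition, so these correlations are descriptions. Clec4d and Clec4e had a Pearson r of 0.96 over 28 samples and 0.94 over the 25 of low mitochondrial share, and of 0.94 over the 18 animals of the sex experiment. Clec7a and Clec12a had 0.79 over both 28 and 25 samples and 0.97 over the 18 animals. Over the 18 animals such values were not particular to these pairs. Clec4e had 0.95 with Clec12a and 0.95 with Clec7a, and Clec4a2 had 0.93 with Clec5a. Pairs with Clec4a3 ran from -0.19 to 0.29. The values over the 18 animals include male WT 5 and female WT 2, and none without them is given here. Clec4a3 and Clec5a had 0.93 over 28 samples and 0.54 over 25, and Clec4a2 and Clec4a3 had 0.95 and 0.62. Clec4a1 and Clec4a2 had 0.77 and 0.88, and Clec4a1 and Clec7a 0.18 and -0.42.

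**Figure D5:**
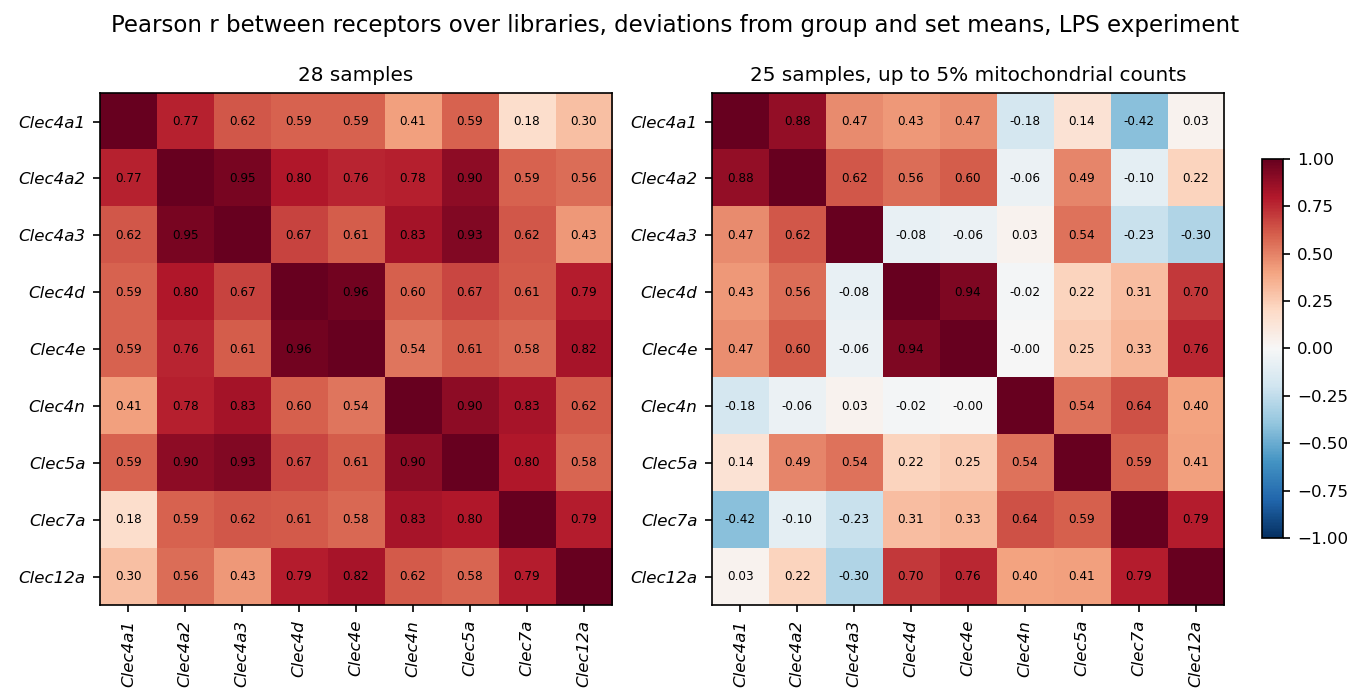
Pearson r between receptors in the LPS experiment, computed on deviations of log2(CPM + 0.5) from group and library set means, over 28 samples (left) and over the 25 with up to 5% mitochondrial counts (right). Colour runs from -1 (blue) to 1 (red); Clec4d with Clec4e stays at 0.96 and 0.94, while Clec4a3 with Clec5a goes from 0.93 to 0.54.

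Among 10396 other genes at a mean of at least 5 CPM, those whose deviations were most like those of each receptor over the 28 samples differed between receptors. For Clec4d they were Ccr1 (r = 0.95), Retnlg (0.95) and Slfn2 (0.95), and for Clec4e Retnlg (0.95), Fpr2 (0.95) and Emb (0.95), of which Retnlg is one of the neutrophil markers listed above. For Clec12a they were Ear2 (0.96), Rgs18 (0.95) and the cyclin Ccna2 (0.94), and over the 25 samples of low mitochondrial share Mki67 came first (0.98), a gene of dividing cells, named after its value was seen. For Clec4a1 they were Gpr18 (0.93), Milr1 (0.93) and Mctp1 (0.91), which also led over 25 samples. For Clec7a they included Tyms (0.94) and Ascc3 (0.92). The genes nearest to Clec4a2 (Degs1, Gnai3 and Acot9), Clec4a3 (Orc5, Tmem87a and Jkamp), Clec4n (Creb1, Pcbd2 and Rab32) and Clec5a (Ptpn2, Tnfaip8 and Zfp456) had r from 0.91 to 0.99 over 28 samples. Over 25 samples the 3 named for Clec4n had r from 0.61 to 0.70.

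Clec7a overlaps an annotated gene on the opposite strand, Gm45969, whose counts in the sex experiment were 116% of those of Clec7a. Whether strand was used in counting is not given in the sources used here, so reads of these 2 genes may not be told apart in that table. No other receptor overlapped another gene there. Of the 50-base stretches of the transcripts, 0.686% of those of Clec4n and 0.457% of those of Clec12a are shared with other genes.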

How the data were processed

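RNA of CD11b-positive mouse brain cells was counted per gene in 18 animals of the sex experiment and 33 libraries of the LPS experiment. Both tables hold raw read counts deposited by the authors. Per the submitters' processing notes, FastQC, STAR 2.6.1, featureCounts of Subread, DESeq2 and GRCm39 were used. The strand setting of counting is not given in the sources used here. In the sex table the gene length equals the gene's span for 100% of genes, per the file headers, so reads in introns lie within the counted spans, and between 79.0% and 89.2% of low counts are even there, against 39.7% to 45.6% in the LPS table. No column lacked a sample, and 6 repeat libraries of the labels were not analysed here.

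WT LPS 8 and 9 differed by less than the other pairs of libraries (chi-square per degree of freedom of 1.86) and were summed and counted as 1 sample. The 4 WT libraries of number 2 were left out of the fits and shown apart, and the LPS fit held 28 samples with the library set as a covariate. Fits used edgeR 4.0.16 in R 4.3.3 (limma 3.58.1), with TMM scaling, filterByExpr, robust quasi-likelihood tests and Benjamini-Hochberg adjustment over 31709 and 16322 genes; a gene passed at an adjusted p under 0.05. SE of a log2 fold change was its size divided by the square root of F. CPM values are TMM-scaled, computed here from the deposited counts, and log2 levels for correlations used a pseudocount of 0.5 CPM. Biological coefficients of variation were 35.3% in the sex and 40.2% in the LPS experiment, and 26.4% without the 3 samples of over 5% mitochondrial counts.

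Alternatives were DESeq2 1.42.0, RLE scaling, a filter at a mean of 5 CPM, no filter, a log2 threshold of 1, fits on just the groups of a contrast, each library set alone, no set term, every library as labelled, no library of number 2, WT LPS 8 and 9 kept apart, a replicate block and leaving out each sample. Leaving out samples over 5% mitochondrial counts, each LPS sample in turn, and animals over 20000 CPM of neutrophil markers was chosen after seeing the data. The receptors and gene lists were chosen with earlier results of these data known. Named genes are the 9 receptors in every contrast, P2ry12 and Saa3, the signalling genes and other lectins that passed, and for each receptor the 3 genes of highest correlation at a mean of at least 5 CPM. Some genes that this rule names are not reported here. Scripts were tested on simulated data.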

Additional observations from a re-analysis of the deposited data

Results flagged for a closer look

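In 19 of 72 sets of 4 to 8 samples (1 receptor in 1 group, on the log2 scale), the highest or lowest sample stood far from its nearest neighbour by Dixon's test. Chance alone gives about 1 in 20 groups, and most of these sets share the same few samples.

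WT LPS 7 stood high for Clec4a2 (1162 CPM), Clec4a3 (1193 CPM), Clec4d (183 CPM), Clec4e (144 CPM), Clec4n (40.7 CPM) and Clec5a (2479 CPM). KO LPS 5 stood high for Clec4a2 (271 CPM), Clec4a3 (585 CPM), Clec4d (61.7 CPM), Clec4e (48.9 CPM) and Clec5a (703 CPM), and KO ns 6 for Clec4a2 (405 CPM), Clec4a3 (484 CPM) and Clec4n (23.2 CPM). These are the 3 samples of high mitochondrial share, whose median correlations with the other samples were 0.89, 0.85 and 0.86. The part of RNA quality in these levels was not tested.

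In the sex experiment, female WT 2 stood high for Clec4a2 (121 CPM) and Clec4e (76.0 CPM) and male WT 5 for Clec4a2 (188 CPM). Male KO 5 stood low for Clec5a (116 CPM) and male KO 3 for Clec7a (30.7 CPM).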

How the results depend on the processing

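Of the alternatives per receptor and comparison, 1793 kept the direction and the side of the threshold, 51 lost a call, 32 gained one and 50 changed direction. Those kept include differences that passed in neither fit. These counts leave out the interactions, KO against WT averaged over the sexes and female against male WT. In the genotype-by-LPS interaction, Clec12a ran from -0.55 to 0.68 and Clec7a from -0.60 to 0.83 with each sample left out. No receptor passed in the sex experiment, in the interaction or between genotypes at ns under any alternative.

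The 3 receptors called in KO under LPS became 1 with all libraries as labelled, 8 without the samples of high mitochondrial share, 6 in set 1 alone, 1 in set 2 alone, and 2 to 5 with each sample left out. The 7 in WT became 0 as labelled, 1 in set 2 alone, and 6 to 7 with each sample left out, and 8 without high mitochondrial share. Between genotypes under LPS, 1 passed as labelled. Deviations of same-numbered samples had a mean r of 0.08 (lowest -0.55) in the LPS experiment, against -0.01 for other pairs. In the sex experiment the mean was 0.21 (lowest -0.17), against -0.05. A replicate block lowered the biological coefficient of variation from 40.2% to 33.3% in the LPS experiment. It went from 35.3% to 31.2% in the sex experiment. These values do not settle whether the numbers pair samples. With a replicate block 7 receptors passed in KO and 8 in WT. The shares of all genes passing with the block, or with each sample left out, are not given here. These counts therefore cannot be set against all genes. Differences that changed sign under the block were Clec5a between genotypes at ns (-0.029), Clec4n under LPS in WT (-0.083) and Clec4n in males (0.033). Female against male WT has no value with the block, nor the interactions with only the groups compared.

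No difference that follows passed in the main comparison. Between genotypes under LPS, Clec7a was 0.032 with WT LPS 8 and 9 apart, 0.15 without high mitochondrial share and 0.26 in set 1, where Clec5a was 0.012 and Clec12a 0.14; with each sample left out, Clec4a3 ran from -0.63 to 0.17, Clec5a from -1.05 to 0.21 and Clec7a from -0.72 to 0.69. Between genotypes at ns, as labelled, Clec4a2 was -0.15, Clec4a3 -0.030, Clec5a -0.31 and Clec7a 0.15. Clec4a2 was -0.084 without high mitochondrial share and -0.070 in set 1, where Clec5a was -0.047. Clec4n was 0.019 without the set covariate and 0.59 in set 2, where Clec7a was 0.044. Leaving out each sample gave -0.059 to 0.63 for Clec4a2, -0.65 to 0.28 for Clec4d, -0.50 to 0.00079 for Clec4n and -0.27 to 0.15 for Clec7a. Under LPS in WT, Clec4n was -0.45 without high mitochondrial share, -0.75 in set 1 and -0.47 to 0.44 with each sample left out, and Clec7a was 0.33 as labelled.

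Without male WT 5 and female WT 2, the female differences were 1.05 for Clec4d, 0.90 for Clec4e, 0.029 for Clec5a, 0.38 for Clec7a and 0.89 for Clec12a, and the male ones 0.19 for Clec4a1, 0.26 for Clec4e and 0.20 for Clec4n. With each animal left out the female ones ran from -1.46 to 1.05, -1.18 to 0.89, -0.17 to 0.027, -0.30 to 0.38 and -0.75 to 0.89, and the male ones from -0.32 to 0.19, -1.63 to 0.27 and -0.36 to 0.21. The causes were not tested.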
